A study of Mus musculus with 6 samples.

Results

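The genes of intermediate filaments and lamins were examined in WT and Oct6 KO epiblast-like cells (EpiLCs). They are 10 of the 55416 genes in the counts, chosen by name: Vim as the mesenchymal filament, Nes and Ina as neural filaments, Krt7, Krt8, Krt18 and Krt19 as epithelial filaments, and Lmna, Lmnb1 and Lmnb2 as nuclear filaments. RNA-seq was performed on 3 libraries of WT EpiLCs and 3 of KO EpiLCs, 6 in all, described as paired biological replicates. WT cells are the parental 46C mouse embryonic stem cell line, which carries GFP under the neural gene Sox1. KO cells are a single clone of 46C with a homozygous 1-nt insertion near the start of the Oct6 coding sequence (gene Pou3f1), so that differences between genotypes and differences between the clone and its parent cannot be told apart. Both were taken from naïve culture to EpiLCs, cells of formative pluripotency, during 48 h on fibronectin in N2B27 medium with 1% KSR (a serum replacement), bFGF and Activin A. The factors were used at 12 and 20 ng/ml according to the labels and at 12 and 20 µg/ml according to the methods.

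Intermediate filaments are ropes of coiled-coil proteins that give cells and nuclei mechanical strength, and each cell type makes its own set. Keratins polymerize only as pairs of an acidic type I protein (Krt18, Krt19) with a basic type II protein (Krt7, Krt8). Krt8 with Krt18 is the pair of simple epithelia. Vimentin is the filament of mesenchymal cells and is often used as a marker of epithelial-to-mesenchymal transition. Nestin, a marker of neural progenitors, does not form filaments by itself but joins those of vimentin, and α-internexin (Ina) is a neuronal filament. The lamins line the inner nuclear membrane. B-type lamins (Lmnb1, Lmnb2) are made by nearly all cells, while the A-type lamins encoded by Lmna are low in pluripotent cells and rise with differentiation.

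Library totals ran from 10995505 to 14680930 counts. Pou3f1 itself had 161, 143 and 122 CPM (read counts scaled to the normalized library size) in WT and 127, 141 and 128 in KO EpiLCs (log2 fold change −0.10, SE 0.11, edgeR adjusted p = 0.574). An insertion of 1 nt need not change the amount of RNA, so these counts do not check the genotype. The 8 pluripotent and formative markers were all detected, with a summed level of 3133 to 3463 CPM in WT and 3036 to 3168 CPM in KO EpiLCs. The median log2 fold change over all genes tested was 0.00, but it was −0.40 over the 773 genes tested on chromosome 6 and 0.55 over the 471 on chromosome 16. None of the 10 filament and lamin genes lies on these chromosomes.

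Vim and Nes moved in opposite directions, and Krt8 and Krt18, neighbours transcribed away from each other, fell by different amounts. The 250 bases before the start of the canonical transcript of these 4 genes are shown as a description. The comparisons of levels below rest on counts alone. They are read 5′ to 3′ on the strand of the gene, from GRCm39 at chr2:13578513-13578762 (plus strand, Vim), chr3:87878150-87878399 (plus strand, Nes), chr15:101912918-101913167 (minus strand, Krt8) and chr15:101936365-101936614 (plus strand, Krt18). Capitals mark GC boxes, the letters GGGCGG or their reverse complement CCGCCC.
Vim: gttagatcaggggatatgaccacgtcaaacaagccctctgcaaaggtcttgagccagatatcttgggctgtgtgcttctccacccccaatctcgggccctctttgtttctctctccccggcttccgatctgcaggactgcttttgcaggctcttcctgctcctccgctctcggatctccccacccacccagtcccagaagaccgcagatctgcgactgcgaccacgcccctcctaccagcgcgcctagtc
Nes: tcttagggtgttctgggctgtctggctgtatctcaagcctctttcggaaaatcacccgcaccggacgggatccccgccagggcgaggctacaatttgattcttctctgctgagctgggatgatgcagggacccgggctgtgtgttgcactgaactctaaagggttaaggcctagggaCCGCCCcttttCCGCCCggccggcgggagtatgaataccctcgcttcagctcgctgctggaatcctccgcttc
Krt8: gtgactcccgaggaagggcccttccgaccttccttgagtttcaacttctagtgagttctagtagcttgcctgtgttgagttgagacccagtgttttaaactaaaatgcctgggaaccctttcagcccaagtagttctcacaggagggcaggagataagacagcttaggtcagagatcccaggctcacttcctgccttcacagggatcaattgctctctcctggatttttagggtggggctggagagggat
Krt18: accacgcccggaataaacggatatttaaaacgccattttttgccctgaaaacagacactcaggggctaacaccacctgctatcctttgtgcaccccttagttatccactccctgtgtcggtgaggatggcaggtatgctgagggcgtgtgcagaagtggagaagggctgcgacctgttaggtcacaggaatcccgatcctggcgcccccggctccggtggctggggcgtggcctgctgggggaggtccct

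The octamer ATGCAAAT, the motif of POU factors such as Oct6, was not found on either strand in the 250 bases before any of the 10 genes. It was present in only 1.49% of the same windows of 21770 protein-coding genes, so its absence before 10 genes carries little information. The letters TATAAA, searched on both strands, were also not found before any of the 10 genes and occurred in 11.9% of all windows. GC boxes occurred in 36.3% of all windows and before 5 of the 10 genes. Nes had 2 of them, 73 and 62 bases before the start, and Krt7 had 4. Vim, Krt8 and Krt18 had none. These matches describe letters only, and no binding was measured here.

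All 10 genes had enough counts to be tested, and 7 of them differed between genotypes at an adjusted p below 0.1, against 24.3% of the 15746 genes tested. Vim was higher in KO EpiLCs, where 11.8% of all genes were called higher. Nes, Krt7, Krt8, Krt18, Krt19 and Lmna were lower, where 12.5% of all genes were called lower. The call with a log2 fold change of at least 1 in either direction was met by 6 of the 10, against 6.21% of all genes, although 3 (Krt7, Krt8 and Lmna) lay just above that size and the count was 3 without KO replicate 2 and 4 without WT replicate 1. The values of the 3 WT and the 3 KO libraries did not overlap for 7 of the 10 genes, against 33.7% of all genes. The median log2 fold change of the 10 genes was −0.66. Because the 10 genes were chosen with earlier results of these data known, the shares over all genes are given as background only.

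**Figure D1:**
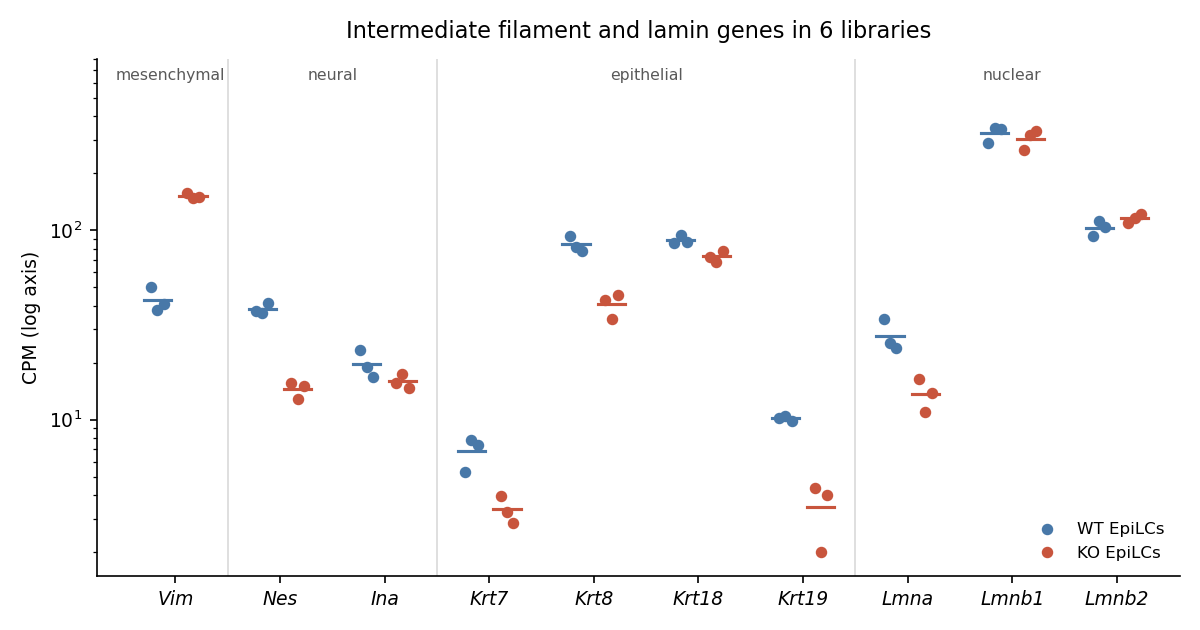
CPM (log axis) of the 10 genes in each library, WT in blue and KO in red, grouped by the kind of filament. Points are libraries and bars are means of 3; Vim is the one gene whose KO libraries all lie above its WT libraries, and the libraries of Ina, Lmnb1 and Lmnb2 overlap between genotypes.

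Vim (ENSMUSG00000026728.10, GRCm39 chr2:13578738-13587639, plus strand, 9 exons) encodes vimentin. It had 50.4, 37.8 and 40.9 CPM in the WT libraries and 156, 148 and 150 CPM in the KO libraries. The 2 groups were widely separated, and the KO libraries lay closer together than the WT libraries did. The means were 43.0 ± 6.57 and 151 ± 4.53 CPM (SD, n = 3 each), a 3.51-fold higher level in KO EpiLCs (log2 fold change 1.81, SE 0.11, edgeR adjusted p = 5.1e-09).

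Markers of other cell types that contain vimentin were measured in the same libraries. The 9 fibroblast markers summed to 13.6 to 22.0 CPM in WT and 9.41 to 14.0 CPM in KO EpiLCs, so their sum was not higher in KO. Most of it came from Dcn (means 7.98 in WT and 5.40 CPM in KO) and Col1a2 (3.30 and 1.93 CPM), neither of them called. Col1a2 lies on chromosome 6, where the median log2 fold change of the genes tested was −0.40. Of the 9 markers, 5 were below 1 CPM in every library. Among the 4 tested, Thy1, a surface protein of fibroblasts and neurons, was the only one called (lower, log2 fold change −1.22, edgeR adjusted p = 0.0175, against 12.5% of all genes called lower). The 7 mesoderm markers summed to 6.09 to 6.64 CPM in WT and 9.10 to 12.5 CPM in KO EpiLCs, nearly all of it from Eomes, and the other 6, T and Mesp1 among them, were below 1 CPM in every library. Eomes, a T-box factor of early mesoderm, endoderm and trophectoderm, had 5.82, 5.38 and 5.07 CPM in WT and 10.3, 8.25 and 11.3 CPM in KO (log2 fold change 0.87, SE 0.20, edgeR adjusted p = 0.00344). The 9 primitive endoderm markers summed to 72.7 to 106 CPM in WT and 102 to 172 CPM in KO EpiLCs. Most of it came from 2 basement membrane genes, Col4a1 (means 62.1 in WT and 91.3 CPM in KO) and Lama1 (20.8 and 28.2 CPM, not called). The transcription factors Gata4, Sox7 and Foxa2 were below 1 CPM in every library. The ranges of the sums overlap, while within each of the 3 same-numbered pairs the KO sum was the higher one (124 against 92.2, 102 against 72.7 and 172 against 106 CPM). Of the 6 tested, 3 were called, all higher (against 11.8% of all genes): Gata6, a transcription factor of that lineage (log2 fold change 1.35, edgeR adjusted p = 0.0121), Pdgfra, a receptor on its surface (0.94, adjusted p = 0.0991), and Col4a1, a collagen of its basement membrane (0.55, adjusted p = 0.0113). Gata6 and Pdgfra were low in both genotypes, with means of 1.39 and 1.74 CPM in WT and 3.51 and 3.43 CPM in KO EpiLCs. The part of these cell types in the level of Vim was not tested, and in bulk libraries more cells of a type and more RNA per cell cannot be told apart.

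Of the neural filaments, Nes fell and Ina was not called. Nes (ENSMUSG00000004891.17, chr3:87878385-87887758, plus strand, 4 exons) had 37.6, 36.7 and 41.4 CPM in WT and 15.6, 12.8 and 15.1 CPM in KO EpiLCs. The groups were far apart, with all KO libraries below all WT libraries. Means were 38.6 ± 2.50 and 14.5 ± 1.48 CPM (SD, n = 3), 2.66-fold lower in KO (log2 fold change −1.41, SE 0.13, edgeR adjusted p = 6.7e-07). Ina (ENSMUSG00000034336.4, chr19:47003069-47013770, plus strand, 3 exons) had 23.4, 19.0 and 16.8 CPM in WT and 15.6, 17.4 and 14.7 CPM in KO EpiLCs. Its groups overlapped, since KO replicate 2 was above WT replicate 3 (log2 fold change −0.31, SE 0.15, edgeR adjusted p = 0.191). Ina shares 594 bp with Nt5c2, a gene on the opposite strand with 980 to 1251 counts per library. Whether counting used the strand is not given in the sources used here, so part of the reads of Ina may belong to Nt5c2.

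Neural markers were low in both genotypes. The 8 markers summed to 4.33 to 5.30 CPM in WT and 1.35 to 2.93 CPM in KO EpiLCs, 2 of them were at 0 in every library, and all but Sox1 were below 1 CPM in every library. Sox1, a transcription factor of neural progenitors, had 4.10, 3.56 and 3.31 CPM in WT and 0.405, 2.24 and 0.527 CPM in KO (log2 fold change −1.78, SE 0.44, edgeR adjusted p = 0.00733). Sox1 and Nes were both lower in KO EpiLCs, but among the KO libraries replicate 2 had the highest Sox1 and the lowest Nes. The part of neural cells in the level of Nes was not tested.

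Over the 6 libraries, the CPM ratio of Vim to Nes, without a correction for length, ran from 0.987 to 1.34 in WT and from 9.91 to 11.5 in KO EpiLCs. On the log2 scale, the mean ratio was 0.15 ± 0.24 in WT and 3.37 ± 0.12 in KO (SD, n = 3), a difference of 3.23. All 3 KO ratios were above all 3 WT ratios, which gives the smallest p that an exact two-sided permutation test of 3 against 3 can reach (p = 0.1).

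The epithelial keratins fell as a group, with all 4 lower in KO EpiLCs and no overlap between the groups for any of them (against 12.5% of all genes called lower and 33.7% without overlap). Krt8 (ENSMUSG00000049382.11, chr15:101905133-101912917, minus strand, 9 exons), the type II keratin of simple epithelia, had 93.2, 81.4 and 77.5 CPM in WT and 42.9, 33.8 and 45.7 CPM in KO EpiLCs. The lowest WT library was well above the highest KO library. The means were 84.0 ± 8.18 and 40.8 ± 6.20 CPM (SD, n = 3), 2.06-fold lower in KO (log2 fold change −1.04, SE 0.12, edgeR adjusted p = 8.6e-06). Reads of Krt8 could also be assigned to its pseudogene Krt8-ps, which had only 1.28 to 2.69 CPM in WT and 1.08 to 1.35 CPM in KO.

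Krt18 (ENSMUSG00000023043.8, chr15:101936615-101940462, plus strand, 7 exons), the type I partner of Krt8, changed least of these 4 keratins. It had 85.6, 94.7 and 86.7 CPM in WT and 71.8, 68.0 and 78.1 CPM in KO EpiLCs. The groups did not overlap, but the gap between them was small. The level was 1.22-fold lower in KO (89.0 ± 4.97 against 72.6 ± 5.07 CPM, SD, n = 3; log2 fold change −0.29, SE 0.10, edgeR adjusted p = 0.0471). This call was lost when WT replicate 2, KO replicate 1 or KO replicate 2 was left out, with adjusted p from 0.126 to 0.196 and log2 fold changes from −0.29 to −0.25.

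The CPM ratio of Krt8 to Krt18 ran from 0.859 to 1.09 in WT and from 0.497 to 0.597 in KO EpiLCs. On the log2 scale, the mean was −0.09 ± 0.18 in WT and −0.84 ± 0.14 in KO (SD, n = 3), a difference of −0.75 with no overlap (exact two-sided permutation test, p = 0.1, the smallest possible).

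Krt19 (ENSMUSG00000020911.15, chr11:100031636-100039491, minus strand, 6 exons), a type I keratin of simple and ductal epithelia, had 10.2, 10.4 and 9.88 CPM in WT and 4.38, 2.01 and 3.99 CPM in KO EpiLCs. WT libraries were nearly equal and KO replicate 2 was the lowest. It was 2.94-fold lower in KO (log2 fold change −1.56, SE 0.24, edgeR adjusted p = 0.00014). Krt7 (ENSMUSG00000023039.18, chr15:101308924-101328194, plus strand, 9 exons), a type II keratin of ductal epithelia and trophectoderm, had the lowest level per kb of the 10. It had 5.30, 7.76 and 7.31 CPM in WT and 3.97, 3.24 and 2.86 CPM in KO (log2 fold change −1.01, SE 0.24, edgeR adjusted p = 0.0050). WT replicate 1 was the closest to the KO libraries.

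Trophectoderm, an epithelium rich in these keratins, was represented by 8 markers with a summed level of 16.2 to 17.4 CPM in WT and 15.5 to 19.9 CPM in KO EpiLCs. The sums overlapped, but they include Krt7, itself one of these keratins, so they are not independent of the keratin levels. Only 3 genes of the list were tested, and 2 were called (against 24.3% of all genes): Eomes higher (log2 fold change 0.87) and Krt7 lower (−1.01). Of the 8 markers, 5 were below 1 CPM in every library, among them Cdx2, Gata3 and Elf5. The part of such cells in the keratin levels was not tested.

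**Figure D2:**
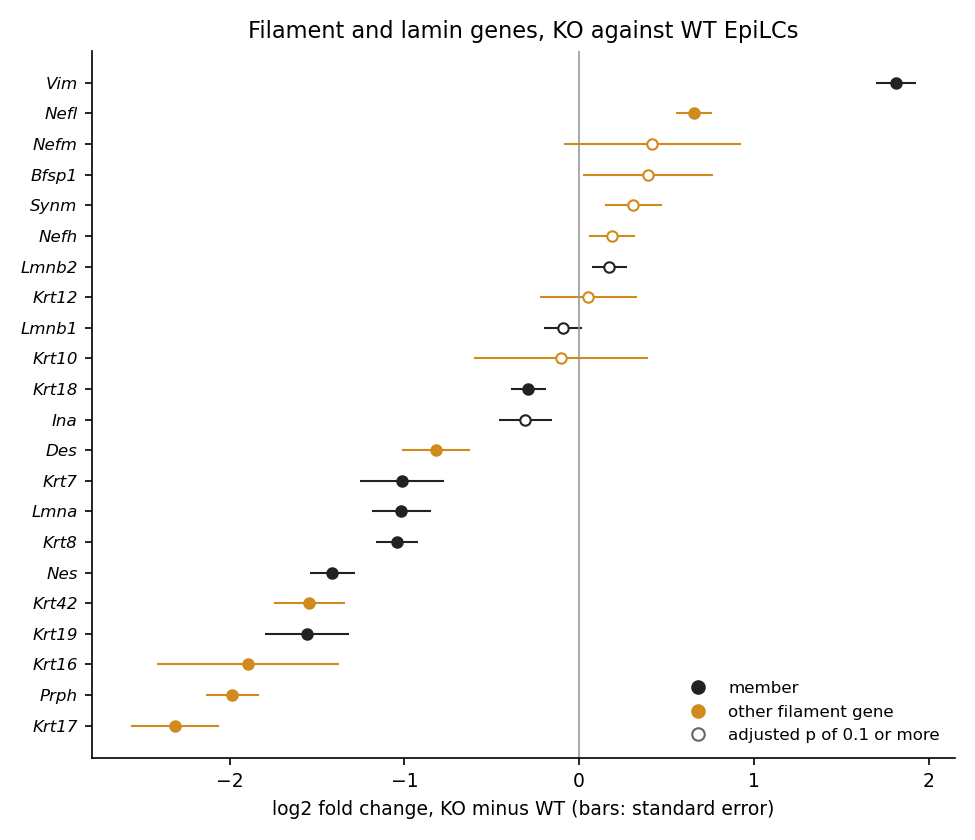
Log2 fold change (KO minus WT) with its standard error for the 10 genes (black) and the 12 other tested intermediate filament genes (orange). Open symbols have an adjusted p of 0.1 or more; Vim at 1.81 and Nefl at 0.66 are the called genes to the right of 0, and the 11 others called lie to the left.

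The other intermediate filament genes were counted to place these values. Of 59 further genes of the family, 47 had a count in any library and 12 had enough to be tested, of which 1 was higher and 5 lower in KO EpiLCs (against 11.8% and 12.5% of all genes), with a median log2 fold change of −0.03. Among all 54 keratin genes, the 4 above included, 9 were tested and 7 of these were lower, with none higher. All 5 of the other tested keratins are type I genes on chromosome 11. Krt17, a keratin of basal and stressed epithelia, had 7.31, 9.13 and 7.31 CPM in WT and 1.86, 1.47 and 1.43 CPM in KO (chr11:100147040-100151974, log2 fold change −2.31, SE 0.25, edgeR adjusted p = 4.4e-06). Its neighbour Krt42 had 10.8, 12.5 and 12.7 CPM in WT and 3.32, 5.17 and 3.84 CPM in KO (chr11:100153708-100160697, log2 fold change −1.54, SE 0.20, edgeR adjusted p = 3.3e-05). Both were clearly separated between genotypes. Krt16, named after its values were seen because it is the remaining keratin called, had 0.970 to 1.37 CPM in WT and 0.162 to 0.463 CPM in KO (log2 fold change −1.89, edgeR adjusted p = 0.0140). Krt16, Krt17 and Krt42 are close copies of each other, and how reads with several matches were counted is not given in the sources used here, so the split of reads among them is uncertain. Krt10 and Krt12 were not called (adjusted p = 0.923 and 0.930).

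Filaments outside the keratins moved in both directions. Prph (peripherin, a filament of peripheral neurons) had 31.3, 27.6 and 30.2 CPM in WT and 8.18, 6.48 and 7.90 CPM in KO EpiLCs, without overlap (log2 fold change −1.98, SE 0.15, edgeR adjusted p = 6.6e-08). Des (desmin, the muscle filament) had 9.25, 10.1 and 10.3 CPM in WT and 4.54, 5.71 and 6.54 CPM in KO (log2 fold change −0.82, SE 0.20, edgeR adjusted p = 0.00555). Nefl, the light neurofilament subunit, was the only one besides Vim to be higher, with 42.8, 41.1 and 47.1 CPM in WT and 69.1, 68.3 and 69.3 CPM in KO (log2 fold change 0.66, SE 0.10, edgeR adjusted p = 0.00016). Its companion subunits Nefm and Nefh were not called (log2 fold changes 0.42 and 0.19, adjusted p = 0.639 and 0.363), nor were Synm (synemin) and Bfsp1, a lens filament gene. Filament genes of neural cells were thus lower (Nes, Prph), higher (Nefl) or not called (Ina, Nefm, Nefh).

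To compare levels between genes, CPM were divided by the length of the exons of each gene in kb. In WT EpiLCs, Krt18 (61.9 CPM per kb) and Krt8 (42.9) were the most abundant of the 7 cytoplasmic genes among the 10, followed by Vim (9.05). Nes (6.01), Ina (5.95) and Krt19 (5.48) came next, with library ranges that overlapped between neighbours, and Krt7 was last (0.963). In KO EpiLCs the order of these 7 was Krt18 (50.5), Vim (31.8) and Krt8 (20.8), with no overlap between them. Ina (4.80) followed, then Nes (2.26) and Krt19 (1.86), which overlapped, and Krt7 (0.476).

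The 7 cytoplasmic genes summed to 132 ± 5.39 CPM per kb in WT and 113 ± 7.28 CPM per kb in KO EpiLCs (SD, n = 3). As a share of this pool, Vim made up 7.74%, 5.95% and 6.80% in WT and 28.7%, 29.7% and 26.6% in KO. The 4 keratins together made up 82.8%, 85.5% and 84.1% in WT and 65.1%, 63.3% and 67.7% in KO. Krt8 alone went from 32.4% ± 2.05 to 18.4% ± 1.67, while Krt18 stayed within its spread (46.9% ± 3.02 and 44.9% ± 1.23, exact two-sided permutation p = 0.4). Nes went from 4.55% ± 0.476 to 2.00% ± 0.102. For Vim, the keratins together, Krt8 and Nes the groups did not overlap, and each exact two-sided permutation test over the 6 libraries gave its smallest possible value (p = 0.1, or 0.12 after Benjamini-Hochberg adjustment over the 12 shares, sums and ratios compared). The share of Vim depended on the length used: with the length of the canonical transcript alone, it was 13.5% in WT and 45.9% in KO, and Vim was then above Krt18 in KO EpiLCs (69.0 against 50.5 CPM per kb).

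**Figure D3:**
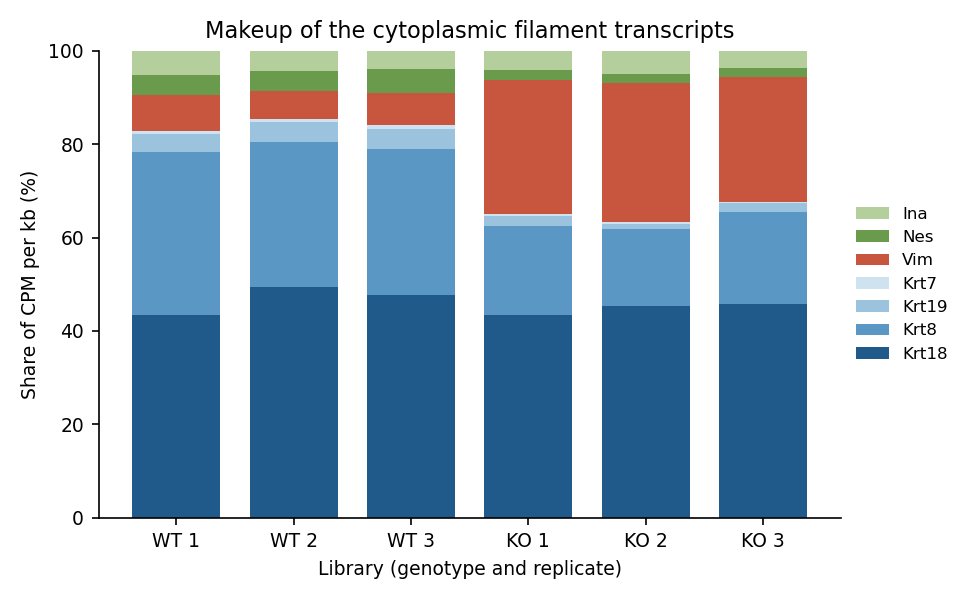
Share of each of 7 cytoplasmic filament genes in their summed CPM per kb of exon length, in %, for each library. Keratins are blue, Vim is red and the neural filaments are green; the red segment is 5.95% to 7.74% in WT and 26.6% to 29.7% in KO libraries, and that of Krt8 is 32.4% on average in WT and 18.4% in KO.

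Among the nuclear filaments, Lmna fell and the B-type lamins were not called. Lmna (ENSMUSG00000028063.16, chr3:88387454-88417299, minus strand, 12 exons) had 34.0, 25.3 and 23.9 CPM in WT and 16.3, 11.0 and 13.8 CPM in KO EpiLCs. WT replicate 1 was the highest WT library and KO replicate 1 the highest KO library, and the groups did not overlap. The level was 2.02-fold lower in KO (27.7 ± 5.46 against 13.7 ± 2.63 CPM, SD, n = 3; log2 fold change −1.02, SE 0.17, edgeR adjusted p = 0.00024). Lmnb1 (ENSMUSG00000024590.9, chr18:56840590-56886496, plus strand, 11 exons) had 290, 344 and 340 CPM in WT and 265, 317 and 332 CPM in KO (log2 fold change −0.09, SE 0.11, edgeR adjusted p = 0.614). Lmnb2 (ENSMUSG00000062075.14, chr10:80737037-80754110, minus strand, 12 exons) had 93.1, 112 and 103 CPM in WT and 109, 116 and 122 CPM in KO (log2 fold change 0.17, SE 0.10, edgeR adjusted p = 0.269). Both B-type lamins had overlapping groups.

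Per kb of exons, Lmnb1 was the most abundant of the 10 genes in both genotypes (90.0 CPM per kb in WT and 84.3 in KO), Lmnb2 stood at 22.4 and 25.3, and Lmna at 4.47 and 2.21. The CPM ratio of Lmna to Lmnb1 ran from 0.0701 to 0.117 in WT and from 0.0349 to 0.0615 in KO EpiLCs. On the log2 scale, the mean ratio was −3.56 ± 0.41 in WT and −4.47 ± 0.42 in KO (SD, n = 3), a difference of −0.91 (exact two-sided permutation test, p = 0.1, the smallest possible). The groups did not overlap, although WT replicate 3 and KO replicate 1 were close.

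**Figure D4:**
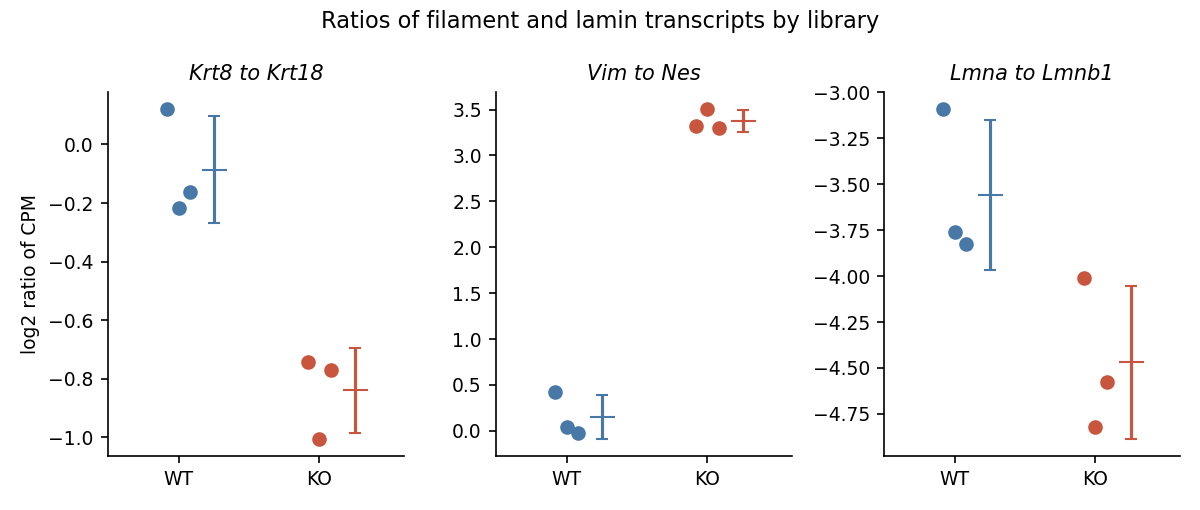
Log2 ratio of CPM of 3 gene pairs in each library (points), with mean and SD of the 3 libraries of a genotype beside them; the vertical axes differ between panels. KO minus WT is −0.75 for Krt8 to Krt18, 3.23 for Vim to Nes and −0.91 for Lmna to Lmnb1, and in no panel do the groups overlap.

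The genes that anchor filaments and the lamina were described from lists. Of 19 cytolinker and desmosome genes, 17 were tested, and 5 were lower and none higher in KO EpiLCs (against 12.5% and 11.8% of all genes). Their median log2 fold change was −0.21. Pkp3 (plakophilin 3, a desmosomal plaque protein) had 15.0, 14.1 and 11.9 CPM in WT and 7.53, 3.01 and 5.72 CPM in KO (log2 fold change −1.33, SE 0.24, edgeR adjusted p = 0.00055). Dsp (desmoplakin), which ties keratins to desmosomes, had 53.4, 47.8 and 55.2 CPM in WT and 29.9, 25.5 and 46.6 CPM in KO (log2 fold change −0.62, edgeR adjusted p = 0.0107). Also lower were Eppk1 (epiplakin, a keratin-binding plakin; −0.69, adjusted p = 0.0298), Fam83h, a keratin-associated protein (−0.49, adjusted p = 0.0298), and Plec (plectin, a linker of filaments to junctions and to actin; −0.41, adjusted p = 0.0675). In Plec, KO replicate 3 (227 CPM) lay within the WT range of 203 to 233 CPM, and in Dsp it was the KO library nearest to WT. The desmosomal genes Dsg2, Dsc2, Jup and Pkp2 were not called (log2 fold changes 0.04, −0.28, −0.20 and 0.12). The count of 5 was 3 without WT replicate 1.

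All 30 genes of lamina partners and lamin processing were tested, and 5 were called (against 24.3% of all genes), with a median log2 fold change of −0.10. Syne1 (nesprin-1, which links the nuclear envelope to the cytoskeleton) had 20.5, 15.5 and 19.3 CPM in WT and 43.3, 28.2 and 34.4 CPM in KO EpiLCs, without overlap (log2 fold change 0.93, SE 0.16, edgeR adjusted p = 0.00029). Sun2, the inner membrane protein that nesprins bind, was also higher (0.43, edgeR adjusted p = 0.0840). Lower were Tor1aip1 (LAP1, a lamin-binding membrane protein; −0.44, adjusted p = 0.0474), Fnta, the α subunit of farnesyltransferase, which modifies lamins (−0.35, adjusted p = 0.0180), and Ankle2, a LEM-domain protein of the envelope (−0.33, adjusted p = 0.0200). The other 25 genes, among them the lamin partners Emd, Tmpo and Lbr and the protease Zmpste24 that matures lamin A, were not called (log2 fold changes of these 0.15, −0.06, −0.07 and −0.19). A replicate block in the model raised the count to 9 of the 30.

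The genes whose levels most resembled those of Vim and of Nes were sought among 9860 genes with an average log2 CPM of at least 3, by the Pearson correlation of log2 CPM over the 6 libraries. With 6 points in 2 groups that share a single contrast, many genes reach high values, so these are descriptions. For Vim they were Clcn2, a chloride channel (r = 0.9990, 22.8, 17.7 and 18.4 CPM in WT and 50.1, 48.1 and 50.2 CPM in KO), Dppa2, a gene of pluripotent cells (r = 0.9971, means 59.6 and 131 CPM), and Tdh, threonine dehydrogenase (r = 0.9970, means 16.4 and 84.7 CPM). Clcn2 and Dppa2 lie on chromosome 16, where the median log2 fold change of the genes tested was 0.55. For Nes they were Rnf213 (r = 0.9985, means 166 and 87.7 CPM), Bmal2, a clock gene relative on chromosome 6 (r = 0.9976, means 29.8 and 6.35 CPM), and the filament gene Prph described above (r = 0.9973).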

How the data were processed

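Per the study's methods, total RNA of EpiLCs was depleted of ribosomal RNA and sequenced as stranded paired-end libraries. Reads were quality-checked (FastQC) and trimmed (Fastp) before two-pass STAR mapping to GRCm39. The authors deposited raw counts per gene from that run, 1 column per library, with no normalization. STAR version, annotation release and strand setting are not given in the sources used here. Here, Ensembl identifiers were matched to GENCODE M39 on GRCm39 (54749 of 55416 matched, the rest holding 0.0602% of counts), which also gave lengths, positions and promoter windows. Libraries had 10995505 to 14680930 counts, which limits precision mostly for genes under a few CPM.

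Genotype was tested with edgeR 4.0.16 (R 4.3.3) by the quasi-likelihood test with TMM factors (0.974 to 1.02) and filterByExpr (minimum count 10), and p-values were adjusted by Benjamini-Hochberg over 15746 genes, with calls at an adjusted p below 0.1. Log2 CPM used a prior count of 2. The test was checked on simulated counts. Ratios and shares were compared by exact two-sided permutation tests over libraries, 12 values in all. No 2 libraries of a genotype agreed within sampling noise, as repeat deposits of the same library would (chi-square per degree of freedom 6.31 to 10.6).

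Libraries with the same number deviated together from their group means (r = 0.253, 0.302 and 0.124 over 13228 genes; −0.228 to −0.0386 for different numbers), and the series' design text describes them as paired. Deviations from a group mean cancel within the group, so negative values for different numbers come with positive ones for the same number. They are no separate comparison. The methods name no block for the RNA-seq comparison, and the model here had none, with the block as an alternative.

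The 10 genes, the lists and the alternatives were chosen with earlier results of these data known. Every one of the 10 genes is named. Of each list of related genes, up to 6 called genes with the largest change and an average log2 CPM of at least 1 are named, of each marker list the called genes, and for Vim and Nes the 3 most similar genes. The alternatives were DESeq2 1.42.0, other normalizations, filters and thresholds, the replicate block, omission of chromosomes 6 and 16, each library left out, other transcript lengths and another prior count, and, added after seeing the data, the canonical transcript length and a pool of all filament genes.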

Additional observations from a re-analysis of the deposited data

How the results depend on the processing

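Counts of called genes and fold changes of the 10 genes kept their direction in every alternative, and 7 of the 10 genes were called with DESeq2, RLE factors, an adjusted p below 0.05, a minimum of 10 counts per library, all genes with a count, scaling by library totals and without chromosomes 6 and 16. With the replicate block as the pairing, 7 genes were also called, Krt18 with an adjusted p of 0.0231, and the block moved 1 count beyond 1.5 times, lamina partners and processing from 5 to 9. Leaving out 1 library at a time gave 6 to 8 called genes of the 10, 3 to 6 with a log2 fold change of at least 1, 3 to 6 cytolinker and desmosome genes, and 4 to 8 of the 14 tested markers of other cell types (7 with all libraries, against 24.3% of all genes, and 4 without KO replicate 3). The log2 fold change of Krt18 then ran from −0.35 to −0.25 and that of Ina from −0.42 to −0.17, where Ina was called without WT replicate 3 (edgeR adjusted p = 0.0900). The difference in the share of Vim, 21.5 percentage points with exon lengths, was 28.4 with the longest transcript, 35.4 without a length correction, 32.4 with the canonical transcript and 15.6 in a pool of all filament genes. That of the keratins, −18.8 points, was −25.0, −25.5, −28.7 and −16.5 in the same order. The ratios of gene pairs moved by less than their spread with a prior count of 0.5 and with 1 library left out, and a sign-flip test over the 3 pairs reached its smallest exact p (0.25) for each. Genes below a few CPM, such as Krt7 and Krt16, are limited by depth, and only RNA, not protein, was measured.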

Other observations

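Of the 8 pluripotent and formative epiblast markers, Otx2 and Fgf5, a transcription factor and a growth factor of formative cells, were higher in KO EpiLCs (log2 fold changes 0.92 and 0.65, edgeR adjusted p = 0.00017 and 0.00038), as was Sox2 (0.42, adjusted p = 0.0283), whose groups overlapped (11.8% of all genes were called higher). The other 5 were not called, and all their log2 fold changes were negative, from −0.20 (Lin28a) to −0.01 (Utf1). The groups of Lin28a and Pou5f1 (−0.19) did not overlap, against 33.7% of all genes. The median log2 fold change of the 8 markers was −0.09. Otx2 had 58.5, 90.2 and 101 CPM in WT and 143, 160 and 169 CPM in KO, with WT replicate 1 the lowest.

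WT replicate 1 had the highest level of Vim, Ina, Krt8 and Lmna and the lowest of Krt7, Krt18, Lmnb1 and Lmnb2 among the WT libraries. The same-numbered KO replicate 1 also had the highest Vim and Lmna and the lowest Lmnb1 and Lmnb2 of the KO libraries. Unlike WT replicate 1, it had the highest Krt7, and it lay between the other KO libraries in Ina, Krt8 and Krt18. KO replicate 2 had the lowest Krt8, Krt18, Krt19, Nes, Lmna, Pkp3 and Dsp of the KO libraries.

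Lmnb1 shares 466 bp with Marchf3 on the opposite strand, which had 15 to 31 counts per library. Long noncoding genes that overlap Krt7 and Krt8 on the opposite strand had 0 to 3 counts.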
